A study of Arabidopsis thaliana with 12 samples.

Results

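Enzymes of histidine synthesis, methionine synthesis, sulfate activation, cyanate breakdown and guanylate phosphorylation were examined in expression arrays of Arabidopsis thaliana. The 5 genes are AT-HF, CBL, APS4, CYN and AT3G06200, and each was taken from a row of the deposited table that the platform annotation gives to that gene alone. They are 5 of 692 rows with a single gene and of 3439 rows in all. The genes were selected with their differences between treated and water samples already known, so that contrast is described here for them without a test. Each of the 12 arrays measured total RNA from wild-type plants of the ecotype Columbia 0, with 6 arrays in each group, numbered 1 to 6. Water plants were kept in water for 8 h. Treated plants first received staurosporine, an inhibitor of many protein kinases, at 2 µM over 4 h. Ascorbate, an abundant antioxidant of plant cells, followed at 25 mM and pH 5.5, again over 4 h. No group received either agent alone or the pH change alone, so the agents, their order and the pH cannot be told apart.

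AT-HF, also called HISN4, joins a glutamine amidotransferase to a cyclase and closes the imidazole ring of histidine, and its by-product AICAR re-enters purine synthesis. Guanylate kinase passes a phosphate from ATP to GMP to give GDP, the precursor of GTP. ATP sulfurylase, the activity of APS4, attaches sulfate to an adenosine nucleotide as the first step of sulfate reduction, whose product is cysteine. Cystathionine beta-lyase, CBL, cleaves cystathionine to homocysteine on the way to methionine. Cyanase, CYN, breaks down cyanate with bicarbonate to ammonia and carbon dioxide.

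The labels name neither a tissue nor where the numbered replicates came from, so p-values measure only the spread between these arrays, which may be technical. None of the 9 listed leaf and root markers had a row of its own (0 of 9), so the tissue could not be checked. Array means lay between 0.857 and 1.04 intensity units, and 10.3% to 15.2% of rows were listed at 0. In bulk RNA, fewer cells of a type and less RNA per cell cannot be told apart. Arrays with adjacent numbers were treated as related in earlier work on these data. Across rows, their deviations from the group mean correlated between 0.0966 and 0.642 in water and between -0.0876 and 0.497 after treatment. Deviations from a mean that arrays share are pushed towards negative correlation, so low values here do not measure how alike 2 arrays were. Adjacent arrays are grouped below as set 1 (replicates 1 and 2), set 2 (3 and 4) and set 3 (5 and 6). The labels do not say what the arrays of a set share. Across all rows, the median gap between the arrays of a set was 0.16 on the normalized log2 scale. The means of the 3 sets spanned a median of 0.45 in water and 0.64 after treatment.

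AT-HF, AT3G06200 and CYN had lower intensities on every treated array than on any water array, whereas APS4 and CBL overlapped between the groups. Groups that did not overlap, with treated below water, occurred in 3 of the 5 genes and in 12.2% of all rows, and with treated above water in 0 of the 5 genes and in 7.04% of all rows. These shares are given as background only, because the genes were selected on this contrast.

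AT-HF, the histidine enzyme, had water intensities of 1.43, 1.76, 1.57, 1.62, 2.33 and 2.49 in replicates 1 to 6. Its treated intensities were 0.291, 0.355, 0.381, 0.603, 0.318 and 0.482. The highest treated array, replicate 4, lay well below the lowest water array, replicate 1, and the 2 arrays of set 3 were the highest in water. The means were 1.87 ± 0.435 in water and 0.405 ± 0.118 after treatment (SD, n = 6 each). The normalized log2 difference, treated minus water, was -2.20 ± 0.259 (SE), a 4.60-fold lower level. By replicate number the difference ranged from -3.27 to -1.25.

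AT3G06200, the guanylate kinase, had water intensities of 6.79, 6.79, 9.21, 9.38, 6.66 and 7.02, and treated intensities of 1.49, 1.49, 1.34, 1.56, 1.16 and 1.20. The arrays of a set lay close together, with a median gap of 0.06 on the log2 scale, and set 2 stood above the others in water. The means were 7.64 ± 1.29 and 1.37 ± 0.166 (SD, n = 6 each). The log2 difference was -2.41 ± 0.169 (SE), or 5.31-fold lower, and it lay between -2.75 and -1.92 in the 6 replicate numbers. Among the 5 genes it had the narrowest such range.

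CYN, the cyanase gene, had water intensities of 1.48, 1.49, 6.92, 6.95, 6.71 and 5.99. Its treated intensities were 1.04, 0.949, 0.721, 0.745, 1.18 and 0.944. The water arrays fell into a low set 1 and high sets 2 and 3, whereas the treated arrays formed one narrow range just below water set 1. The water mean of 4.92 ± 2.69 (SD, n = 6) therefore lies where no array lies, and the treated mean was 0.930 ± 0.176. The log2 difference was -2.08 ± 0.489 (SE), with the sets differing widely. It was -2.80 ± 0.121 without set 1, -1.56 ± 0.643 without set 2 and -1.85 ± 0.679 without set 3, alternatives chosen after the data were seen.

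APS4, the ATP sulfurylase gene, had water intensities of 0.390, 0.396, 0.416, 0.395, 0.570 and 0.560. After treatment they were 0.538, 0.406, 0.498, 0.257, 0.331 and 0.265. The groups overlapped, since treated replicates 1 and 3 exceeded the first 4 water arrays and treated replicates 4, 5 and 6 lay below every water array. The means were 0.454 ± 0.0862 and 0.382 ± 0.118 (SD, n = 6 each), with a log2 difference of -0.27 ± 0.256 (SE). Without set 3 the log2 difference was 0.21 ± 0.200, so its sign rests on that set.

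CBL, the cystathionine beta-lyase gene, had water intensities of 0.101, 0.129, 0.132, 0.172, 0 and 0.0237. After treatment they were 0.278, 0.208, 0.152, 0.350, 0.0535 and 0.00561. Set 3 was far below sets 1 and 2 in both groups, and within sets 1 and 2 each treated array exceeded the water array of the same number. The means of 0.0931 ± 0.0673 and 0.175 ± 0.131 (SD, n = 6 each) overlapped, and the log2 difference was 0.65 ± 1.08 (SE). Without set 3 it was 1.27 ± 0.370. The size and sign in set 3 depend on how dim values are handled. The 0 of water replicate 5 was given the floor of 0.0157, the 1st percentile of positive intensities, whereas the lower value of treated replicate 6 was kept.

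**Figure D1:**
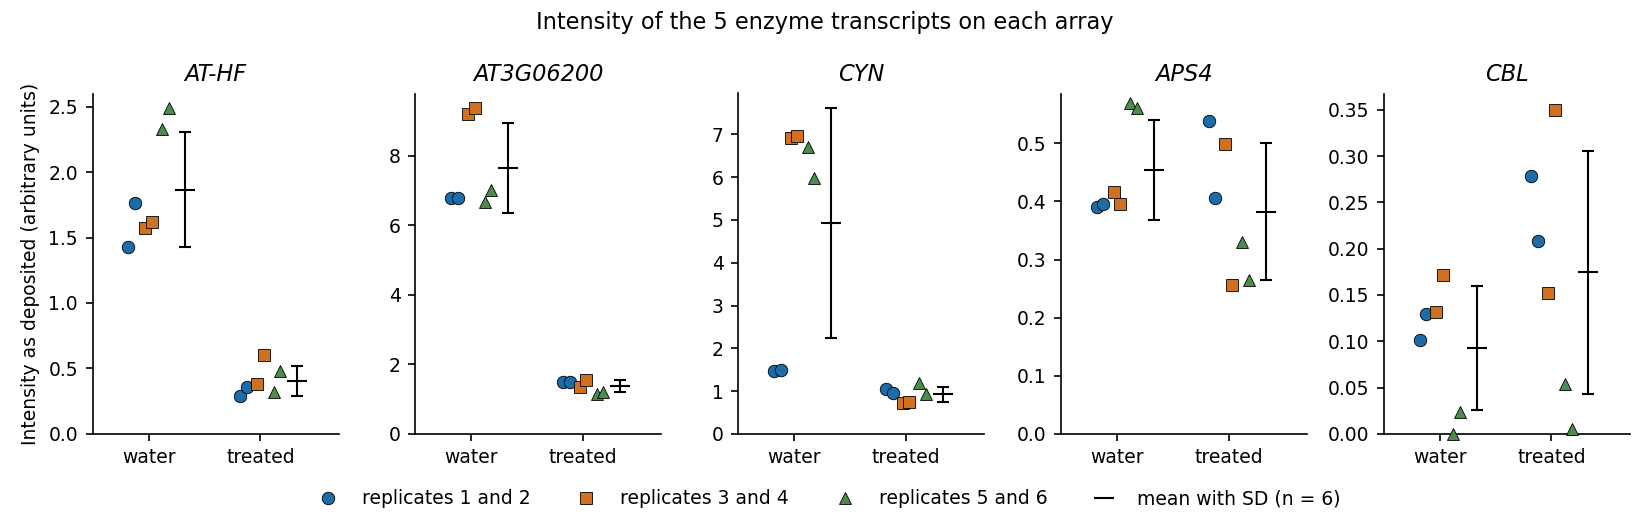
Intensity as deposited (arbitrary units, each panel with its own axis from 0) of the 5 genes on every water and treated array, with colour and shape for the set and a bar for the mean with SD of 6 arrays. AT-HF, AT3G06200 and CYN separate the groups, CYN has water set 1 at 1.48 and 1.49 against 5.99 to 6.95 on the other water arrays, and CBL is near 0 in set 3 of both groups.

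The sets themselves were compared next, in a limma fit with one mean for each group and set. Differences between water sets compare the water arrays alone, but their error was estimated from all 12 arrays. The water arrays are also part of the contrast on which the genes were selected. The sets were formed after adjacent arrays had been compared, so these p-values describe the sets and are not free of selection. This fit takes the 2 arrays of a set as independent, so if they are repeat measurements its p-values are too small. Over all rows, 15.7% differed between water sets at an adjusted p of 0.05 in limma, and 3 of the 5 genes did. CYN had the smallest p of the 5 genes (limma adjusted p 5.67e-05), with set means of 1.48, 6.93 and 6.35 intensity units. Its normalized water set means spanned 2.39 on the log2 scale, more than in 97.4% of rows. The span of CBL was larger, at 3.24 and above 98.8% of rows, with water set 3 at or near the floor. AT3G06200 followed (limma adjusted p 0.00223), with water set means of 6.79, 9.29 and 6.84 intensity units. On the normalized log2 scale, which the test used, its water set means were 2.40, 3.25 and 2.95, so sets 1 and 3 were alike only before normalization.

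CBL also differed between water sets (limma adjusted p 0.0140), its means being 0.115, 0.152 and 0.0118, but this call did not hold under several settings. It was lost without normalization between arrays (limma adjusted p 0.134), with median centring (0.0927) and with the floor at the 10th percentile (0.975). The limma adjusted p was also 0.0531, 0.0920 and 0.0619 without water replicate 4, 5 or 6. AT-HF (limma adjusted p 0.236) and APS4 (0.461) did not pass. Their water set means ran from 1.60 to 2.41 and from 0.393 to 0.565, with set 3 the highest in both.

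Whether the treatment difference itself varied between sets was tested as an interaction, which 15.8% of all rows passed at an adjusted p of 0.05 in limma and 2 of the 5 genes passed. The set differences of CYN were -0.50, -3.03 and -2.71 on the log2 scale in sets 1, 2 and 3, each ± 0.111 (SE), and the interaction had a limma adjusted p of 0.000463. In CYN the treated set means spanned only 0.35 on the log2 scale against 2.39 in water. AT3G06200 had set differences of -1.93, -2.62 and -2.67, each ± 0.0815 (SE), all in the same direction (limma adjusted p 0.0111 for the interaction, and 0.0749 with median centring). Part of the set values had been seen in earlier work on these data, and these tests are not independent support for them.

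For AT-HF the set differences were -2.14, -1.53 and -2.93, each ± 0.301 (SE), and the interaction did not pass (limma adjusted p 0.138). APS4 had differences of 0.37, 0.03 and -1.20, each ± 0.268 (SE), with a limma adjusted p of 0.0603 for the interaction. That p was 0.0434 when dim rows were left out, and 0.0176 and 0.0113 without treated replicate 3 or 4. CBL had differences of 1.40, 0.86 and -0.32, each ± 0.521 (SE), and its interaction did not pass (limma adjusted p 0.300). In the 3 genes that were lower after treatment each set gave a negative difference, which 27.4% of all rows also showed. These genes were selected on this contrast and their groups did not overlap, so the shared sign is not a separate result. For the 2 sulfur genes, the sign was not the same in every set. The negative value of CBL, in set 3, was smaller than its SE and depends on how dim values are handled.

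**Figure D2:**
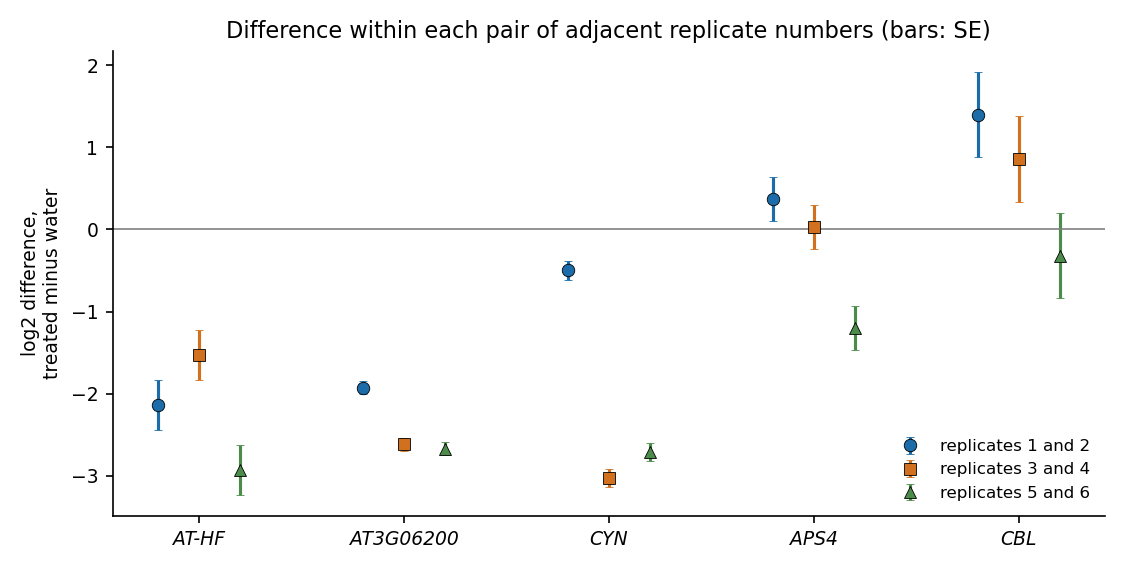
The log2 difference, treated minus water, of each gene in set 1 (circles), set 2 (squares) and set 3 (triangles), with bars for the SE of the fit. CYN stands at -0.50 in set 1 against -3.03 and -2.71 in the other sets, and AT3G06200 lies between -1.93 and -2.67. APS4 and CBL lie on both sides of 0, CBL only through set 3, by less than its SE.

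Genes of neighbouring pathways were then read from 6 lists of 220 genes, of which 7 besides the 5 above had a row of their own. A further 11 list genes were found only on rows shared by several genes and are not named. Of these 7 genes, 2 rose, 2 fell and 3 did not pass an adjusted p of 0.05 in limma. Among the 692 rows with a single gene, 15.6% rose and 15.5% fell, and over all rows 16.7% rose and 16.2% fell. These calls take the arrays as independent, so their p-values are too small if the arrays of a set are repeat measurements. On means of sets, 1 of the 4 calls among the 7 genes was kept, and 418 rows were called in all, against 1131. The median log2 difference of the 7 genes was 0.36, against 0 for all rows. None of the 7 changed by as much as AT-HF, CYN or AT3G06200, which were selected with their differences known.

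Phosphoribosyl pyrophosphate, PRPP, is the sugar phosphate from which both histidine and purines are built, and 2 genes of its synthesis were measured. AT2G35390, a PRPP synthetase, rose from 0.695 ± 0.104 to 1.39 ± 0.408 (SD, n = 6 each), a log2 difference of 1.01 ± 0.185 (SE, limma adjusted p 0.00185). Its lowest treated array, at 0.864, was just above its highest water array, at 0.862, and its set differences were 1.13, 1.15 and 0.73. On means of sets the limma adjusted p was 0.0830. AT2G44530, another PRPP synthetase, stood at 0.418 ± 0.107 and 0.315 ± 0.0902 (limma adjusted p 0.331), with set differences of -0.03, 0.11 and -1.22. No histidine enzyme other than AT-HF had a row of its own.

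AT-HF and AT2G35390 thus stood on opposite sides within the same arrays. The log2 ratio of AT-HF to AT2G35390, from deposited intensities, ran from 0.73 to 2.04 in water, with a median of 1.25. After treatment it ran from -2.60 to -0.84, with a median of -1.74. The groups did not overlap, which was fixed in advance because each gene separated the groups, in opposite directions. A scaling factor common to an array leaves this ratio as it is. The difference in its mean was -3.18, and it is given without a test because AT-HF was selected on this contrast.

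In purine synthesis, AT1G31220, which encodes glycinamide ribonucleotide formyltransferase, fell from 0.778 ± 0.0987 to 0.405 ± 0.136 (SD, n = 6 each). Its water arrays lay between 0.672 and 0.920 and its treated arrays between 0.185 and 0.533, so the groups did not overlap. The log2 difference was -0.91 ± 0.250 (SE, limma adjusted p 0.0163), with set differences of -1.31, -0.39 and -1.04. The limma adjusted p was 0.157 on means of sets and 0.138 without set 3. Both this gene and AT3G06200 act on the route to purine nucleotides. Both were lower on every treated array than on any water array, as were 12.2% of all rows, and AT3G06200 was selected on this contrast. The log2 ratio of AT3G06200 to AT1G31220, from deposited intensities, overlapped between the groups. It ran from 2.93 to 3.69 in water and from 1.12 to 3.01 after treatment. No second guanylate kinase had a row of its own.

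Among other amino acid enzymes, AT3G58610, the ketol-acid reductoisomerase of branched-chain amino acid synthesis, rose from 0.490 ± 0.0294 to 1.13 ± 0.138 (SD, n = 6 each). All its water arrays lay between 0.449 and 0.522 and all its treated arrays between 0.998 and 1.37. The log2 difference was 1.28 ± 0.0989 (SE, limma adjusted p 4.63e-06), with 1.32, 1.23 and 1.29 in the 3 sets. It was the 1 list gene of the 4 changed ones that also passed on means of sets (limma adjusted p 0.0117). The next enzyme of that pathway, the dihydroxyacid dehydratase AT3G23940, stood at 0.310 ± 0.0891 and 0.368 ± 0.10 (limma adjusted p 0.156, and 0.0336 without treated replicate 2).

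AT5G10920, argininosuccinate lyase of arginine synthesis, fell from 2.65 ± 0.371 to 1.61 ± 0.471 (SD, n = 6 each), and its groups, 2.24 to 3.13 in water and 0.935 to 2.21 after treatment, did not overlap. The log2 difference was -0.72 ± 0.202 (SE, limma adjusted p 0.0177). The limma adjusted p was 0.178 on means of sets, 0.0612 without set 1 and 0.0790 without set 2. AT3G53580, diaminopimelate epimerase of lysine synthesis, stood at 0.189 ± 0.125 and 0.198 ± 0.116 (limma adjusted p 0.631), with water set means of 0.262, 0.0352 and 0.271.

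A search of gene names for words of these pathways added 2 rows. THIC, which makes the pyrimidine of thiamine from a purine intermediate, stood at 0.641 ± 0.122 and 0.602 ± 0.155 (limma adjusted p 0.911). Its set differences were 0.03, 0.24 and -0.43 on the log2 scale. The interaction with set passed (limma adjusted p 0.0385), as it did in 15.8% of all rows. UPP, uracil phosphoribosyltransferase, was listed at 0 on 9 of the 12 arrays, so no difference is given. No list gene of sulfate uptake and reduction, of methionine synthesis or of ammonium and nitrate assimilation had a row of its own besides APS4, CBL and CYN.

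**Figure D3:**
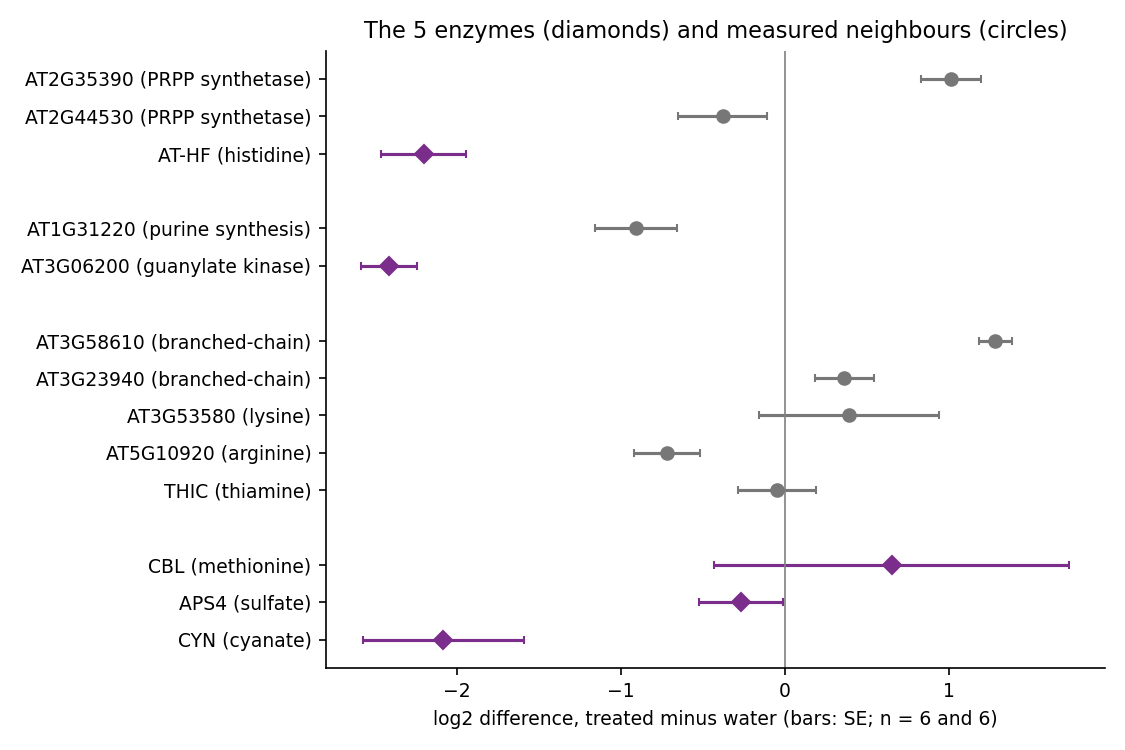
The log2 difference, treated minus water, with its SE (6 arrays in each group) for the 5 genes (diamonds) and for 8 measured genes of related pathways (circles; UPP is left out because 9 of its arrays are at 0). AT2G35390 and AT3G58610 lie at 1.01 and 1.28, opposite to AT-HF, AT3G06200 and CYN between -2.41 and -2.08.

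Likeness of pattern was measured as the root mean square gap between 2 rows over the 12 arrays, after each row was centred on its own mean log2 value. It was taken over 591 other single-gene rows above 0 on at least 10 arrays. This measure includes the treatment difference and depends on how far a row moves, so it describes the profiles and tests nothing. AT-HF and AT3G06200 were each other's nearest row, with a gap of 0.40, where the median gap from AT-HF to all these rows was 1.26. CYN was also nearest to AT3G06200, at 0.63, and next to AT4G31210 (0.74) and AT-HF (0.80).

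AT4G31210 was also among the 3 nearest rows of AT-HF (0.48) and of AT3G06200 (0.54), and its intensity was 0.788 ± 0.168 in water and 0.252 ± 0.0771 after treatment (SD, n = 6 each). AT5G19210, a DEAD-box RNA helicase, was at 0.44 from AT-HF. PSAN, a lumenal subunit of photosystem I, was at 0.56 from AT3G06200. PSAN had set differences of -1.69, -1.30 and -1.72 on the log2 scale, and those of AT4G31210 were -1.50, -1.44 and -1.82. Neither showed the small set 1 difference of CYN (-0.50).

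APS4 had a flatter profile with other neighbours. Its nearest row was NTRC, a plastid thioredoxin reductase, at a gap of 0.21, followed by AT1G22850 (0.23) and AT2G39360 (0.25). NTRC had set differences of 0.33, -0.16 and -1.25 against 0.37, 0.03 and -1.20 for APS4, with the same sign in sets 1 and 3. It was picked as the nearest row on these same arrays, so this likeness is built in. The rows nearest to CBL were AT2G41120 (0.64), AT2G06040 (0.95) and UGT74D1 (0.99), with a median gap of 1.86 to all rows. Like CBL, all 3 were lower on the 4 arrays of set 3 than on any other array. The gap between the 2 sulfur genes was 1.67, above the median gap of APS4 to all these rows (0.63) and below that of CBL (1.86).

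**Figure D4:**
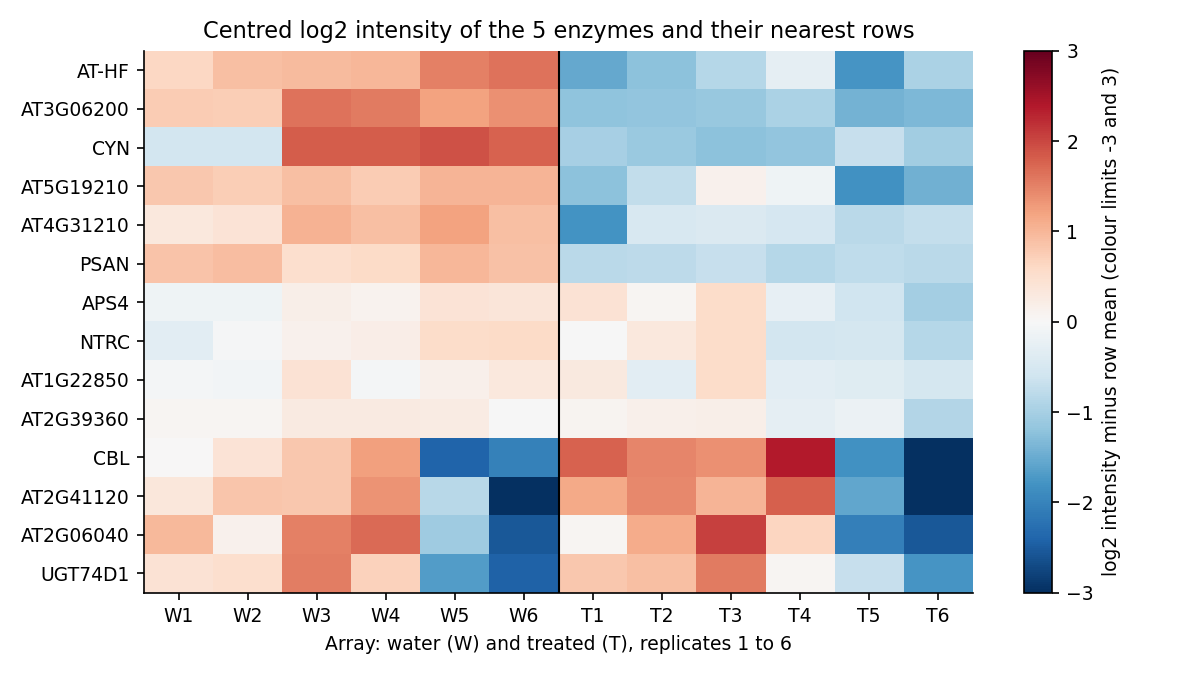
Normalized log2 intensity minus the mean of the row for the 5 genes and the 3 nearest single-gene rows of each, on water arrays W1 to W6 and treated arrays T1 to T6, with values beyond -3 or 3 drawn in the end colour. AT-HF and AT3G06200 are red on every water array and blue on every treated array, their neighbour AT5G19210 is near 0 on T3 and T4, CYN is pale blue on W1 and W2, and CBL and its neighbours are blue on arrays 5 and 6 of both groups.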

How the data were processed

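Total RNA was measured on 12 arrays, and groups and replicate numbers came from the sample titles. Values in the deposited table are intensities on a linear scale. Scanning, background correction and scaling by the authors, and the array's genome build, are not given in the sources used here, so no coordinates are printed. Signal over background is unknown, and the number of arrays limits the precision.

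Each 0 was replaced by the 1st percentile of positive intensities (0.0157), and lower positive values were kept. Values were taken to log2 and, because array medians ranged over 0.47, quantile-normalized. A shift shared by most RNAs would be lost in this step. Differences were fitted with lmFit and eBayes in limma 3.58.1 (R 4.3.3) over all 3439 rows, with Benjamini-Hochberg adjustment over all of them, a threshold of 0.05 and no filter on low values. A second fit had one mean per group and set. Overlap between groups was read from deposited intensities. The main fit and the set fit were tested on simulated data with independent arrays, so likeness between arrays of a set or number was not covered. Plots were made in Python 3.11.15 with matplotlib 3.10.9.

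Gene names came from the platform annotation, which can be old, and from TAIR10.1. A locus was found for 690 of the 692 single-gene rows. The named genes were the 5 genes, each measured gene of the 6 lists, rows whose gene name held one of 46 keywords, and the 3 rows nearest to each of the 5. The keyword rule was written for product names, but the table used held gene symbols and synonyms alone. The genes, lists and sets were chosen with earlier results of these data known. Same-numbered water and treated arrays had deviations from the group means that correlated between 0.302 and 0.425. This was over the limit of 0.1 in 6 of 6 pairs. Water and treated arrays with different numbers were not compared, so the check cannot tell pairing by number from a likeness within sets. The labels state no pairing, and the main fit used none. Alternatives were other normalizations, floors and a pseudocount, a filter on dim rows, the replicate block, means of sets, and each array or set left out.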

Additional observations from a re-analysis of the deposited data

Results flagged for a closer look

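Among 28 groups of 6 values examined, from the 5 genes and their pathway neighbours, 3 held an array far from the others, and chance flags about 5% of groups. That share does not apply to UPP, which accounts for 2 of the 3 and is at 0 on 9 of 12 arrays, so that any value above the floor stands apart. On the normalized log2 scale, AT3G53580 stood at -3.91 on treated replicate 3, against -2.51 to -1.85 on the remaining treated arrays. UPP stood at -4.92 on water replicate 2, where all other water arrays were at the floor (-5.99), and at -3.80 on treated replicate 3, against -7.15 to -5.99. None of these 3 was in one of the 5 genes.

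The treatment difference of CYN varied between the sets of adjacent replicates (limma adjusted p 0.000463), with water replicates 1 and 2 at 1.48 and 1.49 intensity units and the other water arrays at 5.99 to 6.95. That of AT3G06200 also varied (limma adjusted p 0.0111), between -2.67 and -1.93 on the log2 scale. What the arrays of a set share was not tested.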

How the results depend on the processing

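Of 552 values computed under another setting, 523 were labelled as unchanged. For tested values this meant the same side of the threshold and, for differences, the same direction. For differences without a test it meant the same sign and a move smaller than the spread between replicates. For counts it meant staying within a fixed factor of the reported count. Without normalization between arrays, 39.2% of called rows were higher after treatment, against 50.7% as reported. With the replicate block 1252 rows were called, against 1131, and 4 of 4 calls of pathway neighbours were kept. On means of sets 418 rows and 1 pathway neighbour were called, from fewer values. When 1 array was left out, rows whose treatment difference varied between sets numbered 267 to 818, against 542, with the lowest counts without water replicates 5 (267) and 6 (275) and the highest without treated replicate 4. Rows that differed between water sets numbered 294 to 664, against 541, and were 296 and 294 without water replicate 5 or 6. The cause was not tested. The differences of AT-HF (-2.34 to -2.10), CYN (-2.39 to -1.92), AT3G06200 (-2.49 to -2.32), APS4 (-0.40 to -0.09) and CBL (0.20 to 1.37) kept their sign when any 1 array was left out. Without set 3 the sign turned for APS4 (0.21), AT2G44530 (0.04) and THIC (0.14). THIC also turned without treated replicate 5 (0.09) or 6 (0.08), within a range of -0.14 to 0.09 when 1 array was left out. CBL has no value with dim rows left out, since its own row is among them.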
